A study of Mus musculus with 24 samples.

Results

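The NF-kappaB subunits and feedback inhibitors are 10 genes, chosen by name: the subunit genes Rela, Relb, Rel, Nfkb1 and Nfkb2, and the inhibitor and cofactor genes Nfkbia, Nfkbie, Nfkbiz, Tnfaip3 and Bcl3. They were chosen with earlier results of these data known. Of the 17215 genes tested on mouse liver arrays, these 10 were followed through 20 probes, of which 18 passed the filter on dim signals. The probe that stood for each gene was well above background in all 22 mice. The 2 probes that were not kept, 1 of Nfkbiz and 1 of Bcl3, were well above background on no array.

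NF-kappaB is a family of dimeric transcription factors that drives inflammatory and survival genes. Inhibitor proteins of the IkB family hold the dimers in the cytoplasm until IkB kinases, activated by receptors for cytokines or microbial products, mark the inhibitors for destruction; a second, noncanonical branch works through the kinase NIK, the precursor p100 encoded by Nfkb2, and the subunit RelB. Several genes of the family are themselves NF-kappaB targets, so that the response feeds back on itself. In the liver the pathway operates in hepatocytes and in Kupffer cells, and PPARalpha, a fatty acid receptor that governs the fasting response of hepatocytes, is known to repress inflammatory transcription.

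Liver RNA came from male C57Bl/6J mice aged 8 weeks whose liver lacked Ppara (PPARaLKO, here LKO) or carried it (PPARaLWT, here LWT). Each genotype was fed ad libitum or fasted for 24 h, and every mouse was killed at ZT16, 16 h after lights on. The labels gave 5 fed LWT, 5 fasted LWT, 6 fed LKO and 6 fasted LKO mice, measured on 24 arrays because 1 fed and 1 fasted LWT mouse were each hybridised on 2 arrays, whereas the design text speaks of 24 mice with 6 in each group. The Cre driver and the deleted segment of Ppara are not given in the sources used here. All mice had been kept on the same chow and the same light cycle.

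A level below is the log2 of the background-subtracted spot intensity minus the 75th percentile of that array, and a difference is a difference of group means of such levels. Arrays were alike in brightness, with 75th percentiles of 309.7 to 412.6 intensity units and 50.03% to 58.83% of probes well above background. The number of mice limits the precision. Loss of Ppara signal amounted to 1.59-fold between the fed genotypes (adjusted p = 0.00609) and 1.84-fold between the fasted ones (adjusted p = 4.60e-05, limma), from a probe whose position relative to the deleted segment is unknown. Another Ppara probe had mean levels of 4.50 in fed LWT and 3.65 in fed LKO mice. Its means were 5.19 in fasted LWT and 4.18 in fasted LKO mice. Each of the 3 slides carried 2 arrays of every group. Replicate 3 of the fed LKO group stood apart from its 5 group mates, with 7 of the 10 genes above all of them and 1 below. Over all genes 25% were above and 32.6% below. Several values in what follows are therefore also given without this mouse.

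No gene of the 10 was called between fed genotypes, and with fasting the genotypes parted. In LKO mice fasting raised 9 of the 10, Relb by 6.26-fold and Tnfaip3 by 5.46-fold, and Nfkbie was the gene that did not pass the test. In LWT mice fasting raised 3, Nfkb1, Nfkb2 and Nfkbia, and lowered 2, Nfkbie and Bcl3. Fasted LKO mice therefore had 7 of the genes above fasted LWT mice and none below.

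Genes are said to have risen, fallen or been called when limma's moderated test gave an adjusted p under 0.05, with Benjamini-Hochberg adjustment over the 17215 genes. Fasting was a strong stimulus on these arrays, and 44.4% of all genes were called in LWT mice, 23.1% higher and 21.2% lower, beside 5 of the 10 here. In LKO mice 49.7% of all genes were called, 23% higher and 26.7% lower, beside 9 higher and 0 lower of the 10. Between fasted genotypes 37.9% were called, 16.5% higher in LKO and 21.4% lower, beside 7 higher and 0 lower. The share in LWT was thus near that of all genes, and in the other 2 comparisons the direction was the upward one. Median differences over the 10 genes were 0.10 for fasting in LWT, 0.79 for fasting in LKO and 0.82 between fasted genotypes, beside 0.01, -0.04 and -0.03 over all genes. Mice of the compared groups did not overlap in level for 2 genes higher and 2 lower with fasting in LWT (17.7% and 16.6% of all genes), for 7 higher and 0 lower with fasting in LKO (13.2% and 14.1%), and for 8 higher and 0 lower between fasted genotypes (10.6% and 14.8%). The LWT calls of Nfkb1 and Nfkbia were near the threshold: both were lost, leaving 3 called genes, without fed LWT replicate 4 or without fasted LWT replicate 1, 2 or 3, and with slide or replicate number as a block, while Nfkbiz and Tnfaip3 were added, making 7, without fed LKO replicate 3. Fed LKO replicate 3 enters the LWT comparison only through the shared estimate of spread. The shares of all genes above are those of the fit with all mice. The fasting change in LKO and the difference between fasted genotypes share the same 6 fasted LKO mice and are not independent of each other.

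**Figure D1:**
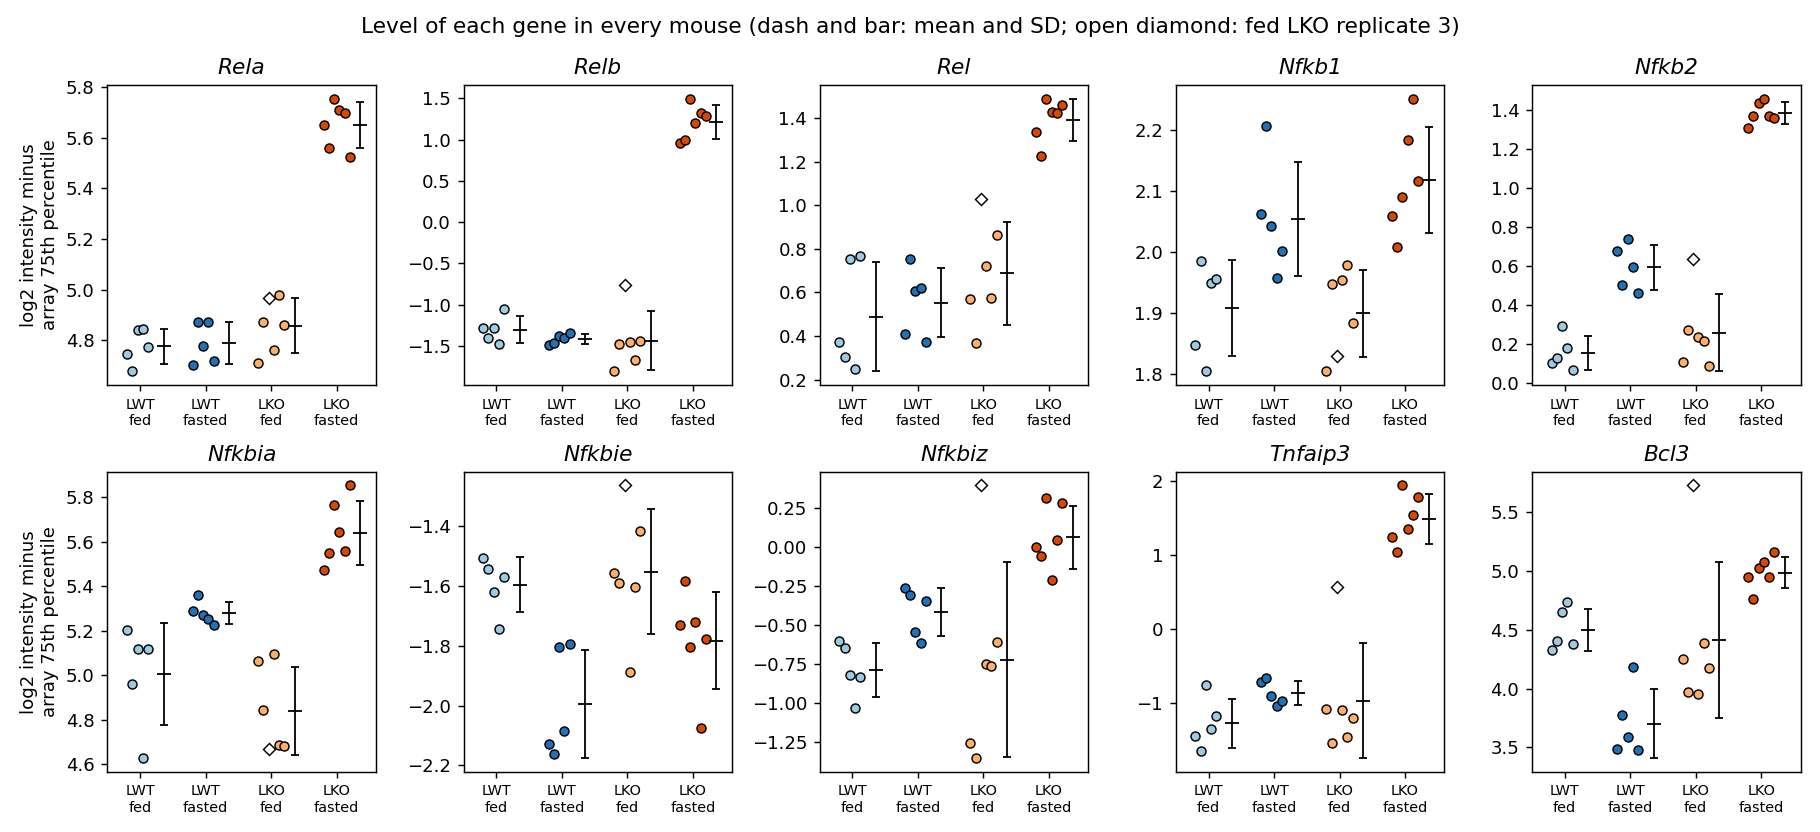
Level of each of the 10 genes (log2 intensity minus the array's 75th percentile, vertical axis, a separate scale per gene) in every mouse, by group, with the group mean and SD beside the points. All fasted LKO mice lie above all other mice for Rela, Relb, Rel, Nfkb2, Nfkbia and Tnfaip3, and the open diamond is fed LKO replicate 3, whose Bcl3 level of 5.73 is the highest of that gene.

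Rela encodes p65, the main transactivating subunit of the canonical pathway. Its levels were 4.74, 4.68, 4.84, 4.84 and 4.77 in fed LWT mice and 4.70, 4.87, 4.78, 4.87 and 4.72 in fasted LWT mice. In LKO mice they ran from 4.71 through a median of 4.87 to 4.98 when fed, and from 5.53 through 5.67 to 5.75 when fasted. The fasted LKO mice were thus all above the other 3 groups, which overlapped one another. The difference between fasted genotypes was 0.86 (SE 0.059, 1.81-fold, adjusted p = 6.82e-10), and over the 3 slides it ranged from 0.81 to 0.95. Fasting changed Rela by 0.79 in LKO mice (SE 0.056, adjusted p = 1.00e-09), beside 0.01 in LWT mice (95% interval -0.12 to 0.14).

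Relb encodes the subunit of the noncanonical branch and is a known NF-kappaB target. Fed LWT mice had levels of -1.29, -1.40, -1.29, -1.48 and -1.05, and fasted LWT mice had -1.49, -1.46, -1.38, -1.40 and -1.34. Fed LKO mice lay between -1.81 and -0.76 with a median of -1.47, the highest being replicate 3. Fasted LKO mice lay between 0.96 and 1.50 with a median of 1.24, far from every other mouse. Relb rose with fasting in LKO by 2.65 (SE 0.13, adjusted p = 7.91e-12), which placed it 48th by size among the 3959 genes called higher. Fasted LKO exceeded fasted LWT by 2.63 (SE 0.137, 6.17-fold, adjusted p = 1.05e-11, rank 28 of 2843), with within-slide values of 2.52 to 2.87. In LWT mice the fasting difference was -0.11 (adjusted p = 0.555).

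Rel encodes c-Rel, a subunit best known from lymphoid cells. Its levels ran from 0.25 to 0.77 in fed LWT, from 0.37 to 0.76 in fasted LWT, from 0.37 to 1.03 in fed LKO and from 1.23 to 1.49 in fasted LKO mice, so only the fasted LKO group was separate. The fasting change in LKO was 0.71 (SE 0.11, adjusted p = 2.05e-05) and the difference between fasted genotypes was 0.84 (SE 0.115, adjusted p = 8.69e-06), with within-slide values of 0.65 to 1.15.

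Nfkb1 encodes p105, the precursor of p50, and Nfkb2 encodes p100, the precursor of p52. Nfkb2 levels were 0.10, 0.13, 0.29, 0.18 and 0.07 in fed LWT mice and 0.68, 0.50, 0.74, 0.59 and 0.46 in fasted LWT mice. They ran from 0.09 through 0.23 to 0.64 in fed LKO mice and from 1.31 through 1.37 to 1.46 in fasted LKO mice. Nfkb2 was the subunit gene with a clear response in both genotypes: in neither did fed and fasted mice overlap. It rose by 0.44 in LWT (SE 0.083, adjusted p = 2.01e-04) and by 1.13 in LKO (SE 0.075, 2.18-fold, adjusted p = 4.37e-10), and fasted LKO exceeded fasted LWT by 0.79 (SE 0.079, adjusted p = 1.61e-07; 0.61 to 0.92 within slides). Nfkb1 had the smallest of the 9 called rises in LKO mice and the smallest difference between fasted genotypes. Its levels spanned 1.80 to 1.98 in fed LWT, 1.96 to 2.21 in fasted LWT, 1.80 to 1.98 in fed LKO and 2.01 to 2.25 in fasted LKO mice. It rose by 0.22 in LKO (SE 0.053, adjusted p = 0.00170) and by 0.15 in LWT (SE 0.058, adjusted p = 0.0465), the latter called in 11 of 31 alternative settings and lost, among others, without fed LWT replicate 1, 3 or 4. Between fasted genotypes Nfkb1 differed by 0.06, with a 95% interval of -0.05 to 0.18 (adjusted p = 0.392).

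Promoter sequences were searched for the motif that NF-kappaB dimers recognise. RefSeq promoter windows of 300 bases (250 before and 50 after the start, build GRCm38.p6) were at hand for 7 of the 10 genes, that is all but Relb, Nfkb1 and Nfkbiz. The kappaB consensus, searched on both strands, was found in 6 of these 7 genes, Rela being the exception, whereas 4.51% of 32851 promoter windows and 5.14% of 27025 genes held it. The genes were chosen by name from the pathway, and several genes of the family are known NF-kappaB targets. A high share could follow from that choice alone, so the comparison is a description and not independent support. A match is a stretch of letters and was not measured as a bound site. Rela, which held no match, also rose with fasting in LKO mice, and whether the matches bear on any rise was not tested. The 250 bases before a start are shown for the 2 subunit genes that hold the consensus, with the matches in capitals. They are given for Rel (chr11:23770970-23771219, minus strand) and for the first of 3 Nfkb2 windows (chr19:46304487-46304736, plus strand).
Rel: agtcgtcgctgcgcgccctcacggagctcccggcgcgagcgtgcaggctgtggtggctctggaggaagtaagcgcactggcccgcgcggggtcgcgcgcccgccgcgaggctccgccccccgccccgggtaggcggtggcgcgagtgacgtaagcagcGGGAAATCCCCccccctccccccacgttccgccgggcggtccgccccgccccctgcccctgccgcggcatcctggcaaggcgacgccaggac
Nfkb2: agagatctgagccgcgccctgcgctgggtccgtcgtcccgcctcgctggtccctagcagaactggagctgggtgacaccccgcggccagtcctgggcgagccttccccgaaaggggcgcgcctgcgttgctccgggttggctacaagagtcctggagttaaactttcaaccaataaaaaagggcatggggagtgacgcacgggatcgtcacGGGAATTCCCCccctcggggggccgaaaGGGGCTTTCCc

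Nfkbia encodes IkBalpha, the inhibitor that NF-kappaB itself resynthesises to end a response. Its levels were 5.20, 4.96, 5.12, 4.63 and 5.12 in fed LWT mice and 5.29, 5.36, 5.27, 5.25 and 5.22 in fasted LWT mice. LKO mice ran from 4.67 through 4.76 to 5.10 when fed and from 5.47 through 5.60 to 5.85 when fasted. Fed and fasted mice did not overlap in either genotype. The rise was 0.80 in LKO (SE 0.097, 1.74-fold, adjusted p = 8.55e-07) and 0.27 in LWT (SE 0.106, adjusted p = 0.0408), the latter called in 21 of 31 alternative settings and lost without any one of the 5 fasted LWT mice or without fed LWT replicate 2 or 4. Fasted LKO exceeded fasted LWT by 0.36 (SE 0.101, 1.28-fold, adjusted p = 0.00777; 0.26 to 0.54 within slides), the smallest of the 7 called differences.

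Tnfaip3 encodes A20, a ubiquitin-editing enzyme that shuts off signalling upstream of the IkB kinases. Fed LWT mice had levels of -1.45, -1.64, -0.76, -1.35 and -1.18, and fasted LWT mice had -0.72, -0.67, -0.91, -1.04 and -0.97. Fed LKO mice ran from -1.54 through -1.15 to 0.56, and fasted LKO mice from 1.04 through 1.44 to 1.94. Every fasted LKO mouse was above every other mouse, and the nearest was fed LKO replicate 3 at 0.56. The fasting change in LKO was 2.45 (SE 0.263, adjusted p = 1.94e-07, rank 60 of 3959) and the difference between fasted genotypes was 2.34 (SE 0.276, 5.07-fold, adjusted p = 1.28e-06, rank 44 of 2843; 1.98 to 2.70 within slides). Without replicate 3 the fasting change in LKO was 2.76 (adjusted p = 1.29e-10). Fasting in LWT gave 0.41 (adjusted p = 0.260, and adjusted p = 0.0486 without replicate 3, which enters that comparison through the shared estimate of spread).

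Bcl3 encodes an atypical IkB protein that acts in the nucleus as a cofactor of p50 and p52 dimers. Its levels were 4.33, 4.40, 4.65, 4.73 and 4.38 in fed LWT mice and 3.49, 3.77, 3.59, 4.18 and 3.48 in fasted LWT mice. They ran from 3.95 through 4.21 to 5.73 in fed LKO mice and from 4.77 through 4.99 to 5.16 in fasted LKO mice. Bcl3 thus went in opposite directions: it fell with fasting in LWT by 0.80 on the log2 scale (SE 0.238, 1.74-fold lower, adjusted p = 0.00966) and rose in LKO by 0.58 (SE 0.217, adjusted p = 0.0329). The LKO change was called in 22 of 31 alternative settings and lost without any one of fed LKO replicates 1, 2, 4, 5 and 6 or fasted LKO replicates 3, 4 and 6, and it was 0.84 without replicate 3 (adjusted p = 8.58e-06). Fasted LKO exceeded fasted LWT by 1.29 (SE 0.228, 2.44-fold, adjusted p = 1.52e-04; 1.0999 to 1.63 within slides), and these groups did not overlap.

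Nfkbie encodes IkBepsilon, and Nfkbiz encodes IkBzeta, a nuclear cofactor of p50 induced by Toll-like and interleukin-1 receptors. Nfkbie levels ran from -1.74 to -1.50 in fed LWT, from -2.16 to -1.79 in fasted LWT, from -1.89 to -1.26 in fed LKO and from -2.08 to -1.58 in fasted LKO mice. It fell with fasting in LWT by 0.40 (SE 0.106, adjusted p = 0.00429), and its difference in LKO was -0.23 (adjusted p = 0.0539, called in 5 of 31 alternative settings, among them without fed LKO replicate 4 or fasted LKO replicate 2). Nfkbie was the gene of the set that fasting raised in neither genotype. Nfkbiz levels ran from -1.03 to -0.60 in fed LWT, from -0.62 to -0.26 in fasted LWT, from -1.35 to 0.39 in fed LKO and from -0.22 to 0.31 in fasted LKO mice. It rose in LKO by 0.78 (SE 0.20, adjusted p = 0.00268), while its second kept probe gave 0.42 and was not called (adjusted p = 0.0785 over all probes). Between fasted genotypes Nfkbiz differed by 0.48 (95% interval 0.04 to 0.92, adjusted p = 0.0800) although the mice did not overlap, and the adjusted p was 0.00681 without fed LKO replicate 3. That mouse enters this comparison only through the shared estimate of spread. The difference of Nfkbie between fasted genotypes was 0.21 (adjusted p = 0.107, and 0.0372 without fasted LKO replicate 5).

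The 4 inhibitor genes with a promoter window all held the kappaB consensus, and they include Nfkbie, which fasting raised in neither genotype. The 250 bases before the start are shown for Nfkbia (chr12:55492648-55492897, minus strand), and for the second listed Tnfaip3 start (chr10:19015411-19015660, minus strand), which holds 2 matches where the other Tnfaip3 window held none.
Nfkbia: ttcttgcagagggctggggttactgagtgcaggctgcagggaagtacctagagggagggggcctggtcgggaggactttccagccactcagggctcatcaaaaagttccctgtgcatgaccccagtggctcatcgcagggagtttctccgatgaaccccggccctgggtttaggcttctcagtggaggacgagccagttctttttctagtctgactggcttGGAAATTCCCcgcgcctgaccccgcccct
Tnfaip3: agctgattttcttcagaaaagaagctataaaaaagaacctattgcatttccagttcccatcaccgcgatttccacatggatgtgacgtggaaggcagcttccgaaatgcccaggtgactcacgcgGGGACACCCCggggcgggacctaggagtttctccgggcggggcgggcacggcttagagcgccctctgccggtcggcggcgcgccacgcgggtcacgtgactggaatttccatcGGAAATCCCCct
For Bcl3 the match lies just after the start, and for Nfkbie it lies before it, so that 30 bases around each are shown (chr7:19822734-19822763, minus strand, and chr17:45555584-45555613, plus strand).
Bcl3: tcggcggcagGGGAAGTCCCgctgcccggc
Nfkbie: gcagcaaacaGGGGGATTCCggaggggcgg

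Fed mice of the 2 genotypes were compared in the same way. No gene of the 10 was called, and none had an unadjusted p below 0.05 (limma, lowest adjusted p = 0.437), where 4.02% of all genes were called, 1.77% higher and 2.25% lower in LKO. The fed genotypes overlapped in level for each of the 10, where 1.51% of all genes were separate and higher in LKO and 2.18% separate and lower. With all mice the largest difference was that of Tnfaip3, 0.30 with a 95% interval of -0.27 to 0.88, and it was -0.00173 without replicate 3. Without that mouse the largest was that of Bcl3, -0.35 (adjusted p = 0.127), beside -0.09 with it. Relb differed by -0.13 (interval -0.42 to 0.15), and by -0.27 without replicate 3 (adjusted p = 0.148). Rela differed by 0.08 (interval -0.04 to 0.21) and Nfkbia by -0.17 (interval -0.38 to 0.05). Intervals of this width do not show that the fed levels were equal.

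Whether the genotypes responded differently to fasting was tested directly, by subtracting the LWT change from the LKO change. It was positive for all 10 genes and called for 7, the same 7 that differed between fasted genotypes, where 18.6% of all genes were called, 7.5% in that direction and 11.1% in the other. Relb had the largest value at 2.76 (SE 0.194, adjusted p = 3.36e-08, rank 13 of 1291; 2.74 to 2.81 within slides), followed by Tnfaip3 at 2.04 (SE 0.39, adjusted p = 0.00110; 1.57 to 2.41 within slides) and Bcl3 at 1.37 (adjusted p = 0.00540). Rela gave 0.78 (adjusted p = 3.04e-06), Nfkb2 gave 0.68 (adjusted p = 2.82e-04), Rel gave 0.64 (adjusted p = 0.00931) and Nfkbia gave 0.53 (adjusted p = 0.0143). The other 3 were Nfkb1 at 0.07 (interval -0.09 to 0.24), Nfkbie at 0.17 and Nfkbiz at 0.41 (adjusted p = 0.373), the last of which was 0.64 without replicate 3 (adjusted p = 0.0211).

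**Figure D2:**
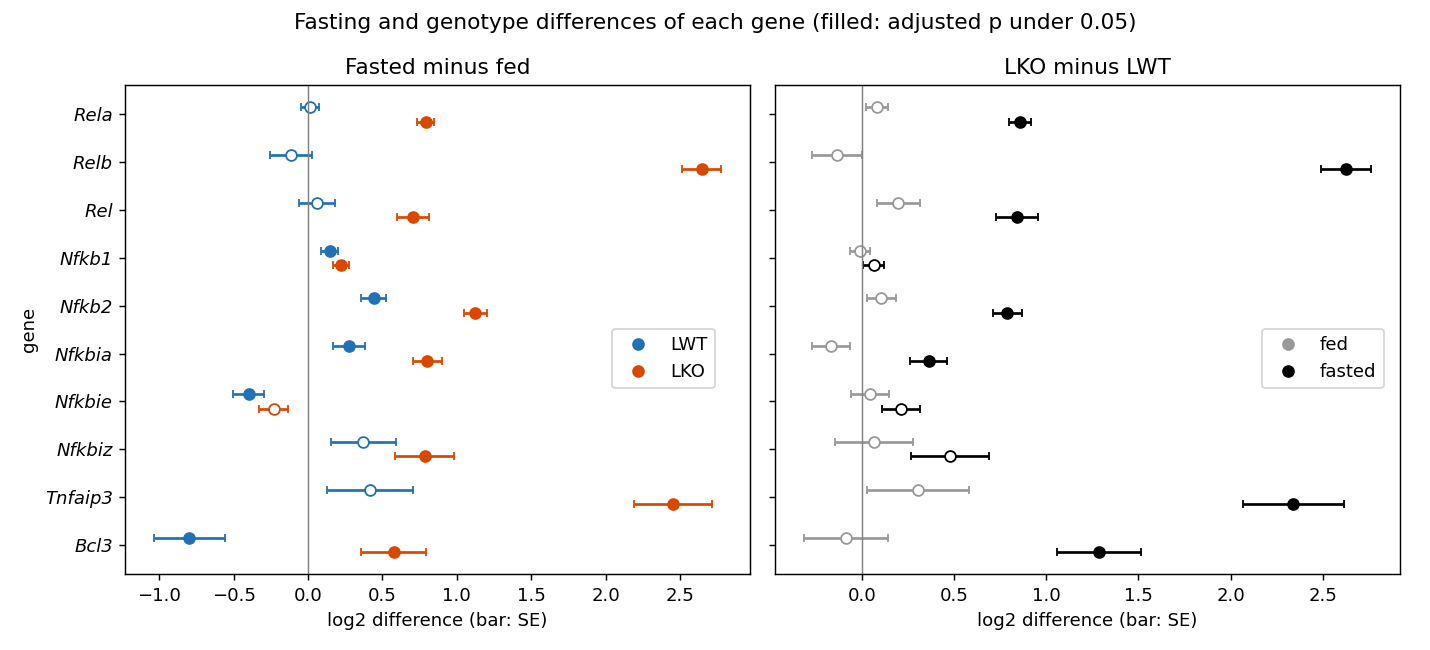
Log2 differences (horizontal axis, bars are SE from limma) of each gene, with fasted minus fed in LWT and LKO mice on the left and LKO minus LWT in fed and fasted mice on the right; filled points have an adjusted p below 0.05. Relb and Tnfaip3 lie farthest to the right, at 2.65 and 2.45 for fasting in LKO, and Bcl3 is the gene with a called change on both sides of 0.

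Probes of a gene did not always agree. At the level of single probes, adjusted over 28138 probes, 12 of the 18 probes were called higher in fasted LKO than in fasted LWT mice and none lower, where 36.3% of all probes were called, 16.4% higher and 19.9% lower. Relb had 3 probes, which lie at chr7:20191722-20191781, chr7:20191939-20191998 and chr7:20203058-20203117 (mm9, minus strand). The first stood for the gene, the second gave 2.70 (SE 0.39, adjusted p = 1.77e-05) from signals near the background in the other groups, and the third, designed on a separate Ensembl transcript, gave 0.06 (adjusted p = 0.781) with levels from -2.54 to -1.67 in fasted LKO mice. With all 3 averaged, the Relb difference was 1.79. The 3 Nfkb1 probes also parted. The probe at chr3:135275144-135275203 rose by 0.31 with fasting in LKO (adjusted p = 9.76e-05), gave -0.07 in LWT (adjusted p = 0.358) and differed between fasted genotypes by 0.50 (SE 0.057, adjusted p = 9.99e-07), whereas those at chr3:135254550-135254609 and chr3:135247898-135247958 differed by 0.03 and 0.06. For fasting, the second of the 3 gave -0.04 in LKO and -0.00323 in LWT (adjusted p = 0.759 and 0.985). The third, which stood for the gene, gave 0.22 and 0.15 (adjusted p = 0.00225 and 0.0544 over all probes). Each Nfkb1 call therefore depended on the probe.

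Between fasted genotypes the other genes with several kept probes gave like values. The second Rela probe gave 0.74 (adjusted p = 1.37e-06) and the second Nfkb2 probe 0.85 (adjusted p = 5.33e-07) between fasted genotypes. The second Nfkbiz probe gave 0.46 (adjusted p = 0.0784). For fasting in LKO the second Rela and Nfkb2 probes gave 0.72 and 1.04 (adjusted p = 5.37e-07 and 1.10e-08). The second Nfkbiz probe gave 0.42 (adjusted p = 0.0785), beside 0.78 for the probe that stood for the gene (adjusted p = 0.00295 over all probes). The Nfkbiz call in LKO therefore depended on the probe. A dim second Rel probe was well above background in no fasted LWT mouse and in 3 of 6 fasted LKO mice, so that its fitted difference of 0.94 (adjusted p = 6.13e-04) rests partly on signals near the background. With the dim group set to the lowest signal well above background on each array, or its own signal where higher, the probe was at least 1.29-fold higher in fasted LKO mice, and this bound was not tested. For fasting, this Rel probe gave 0.39 in LKO and -0.41 in LWT (adjusted p = 0.0849 and 0.104), and neither was called. No annotation of the mm9 build was used here, so exon or UTR positions of the probes are not given.

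**Figure D3:**
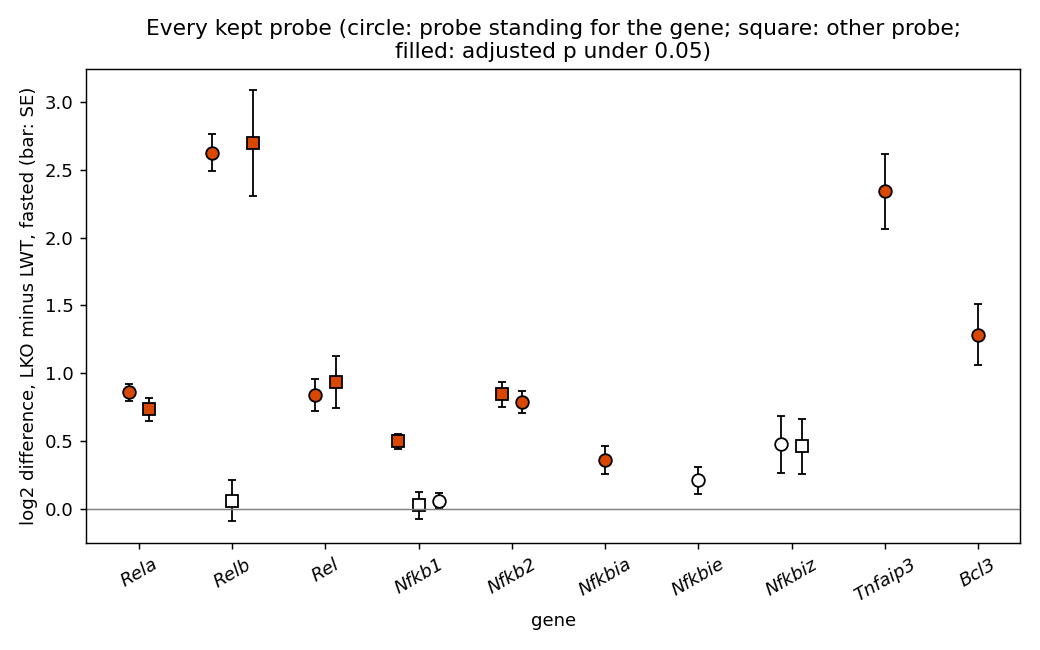
Log2 difference between fasted LKO and fasted LWT mice (vertical axis, bars are SE) for each of the 18 kept probes, grouped by gene; circles mark the probe that stood for the gene and filled symbols an adjusted p below 0.05. One Relb probe at 0.06 and 2 of the Nfkb1 probes lie near 0 while the others of those genes lie higher.

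Genes upstream and downstream of the family were followed in lists taken from general knowledge of the pathway. These lists were chosen with earlier results of these data known, so their counts are descriptions and not independent support. Of 21 tested ligands and receptors, 8 were higher and 2 lower in fasted LKO than in fasted LWT mice, with a median difference of 0.22. Over all genes 16.5% were higher and 21.4% lower in this comparison, with a median of -0.03. Tnfrsf12a, the receptor for the cytokine TWEAK, differed by 2.11 (SE 0.149, adjusted p = 1.02e-09), Tlr2, a receptor for bacterial lipoproteins, by 1.73 (SE 0.143, adjusted p = 1.11e-08), and Cd14, a coreceptor for endotoxin, by 1.01 (SE 0.136, adjusted p = 6.45e-06). Each of these 3 also passed the test of the difference of the fasting responses, with values of 2.35, 1.58 and 1.09. Tnf itself fell with fasting in LWT by 0.91 on the log2 scale (SE 0.192, adjusted p = 6.67e-04). Its mean was also lower in fasted than in fed LKO mice, at 0.12 beside 0.78. In LWT mice the means were 0.01 when fasted and 0.91 when fed.

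Among 31 adaptors and kinases, 8 were higher and 4 lower in fasted LKO mice (median 0.07). In that comparison 37.9% of all genes were called, 16.5% higher and 21.4% lower, so the share called in this list was near that of all genes. Map3k14, which encodes NIK, the kinase that starts the noncanonical branch, differed by 1.09 (SE 0.147, adjusted p = 7.11e-06). Ikbke, an IkB kinase relative induced by inflammation, differed by 1.13 (SE 0.176, adjusted p = 3.90e-05), and Rnf31, the catalytic subunit of the linear ubiquitin ligase, by 0.57 (SE 0.0726, adjusted p = 3.50e-06). Ikbke fell with fasting in LWT by 0.80 on the log2 scale (adjusted p = 0.00129). Fasting called 22 of these 31 genes in LWT, 11 in each direction, where 44.4% of all genes were called, 23.1% higher and 21.2% lower.

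Between fasted genotypes 16.5% of all genes were higher in LKO and 21.4% lower. Among 19 other inhibitors of the pathway, 8 were higher and 3 lower in fasted LKO mice (median 0.14). Those with the largest differences were Tnip2 at 0.76 (SE 0.146, adjusted p = 3.64e-04), a partner of A20, Nfkbil1 at 0.60 (SE 0.0523, adjusted p = 2.68e-08), an IkB-like protein, and Nfkbib at 0.54 (SE 0.0939, adjusted p = 1.22e-04), which encodes IkBbeta. Of 23 known target genes outside the set, 10 were higher and 2 lower (median 0.28). Cxcl1 (2.91, SE 0.577, adjusted p = 4.77e-04) and Cxcl10 (2.51, SE 0.196, adjusted p = 4.86e-09) encode chemokines, and Icam1 (2.10, SE 0.159, adjusted p = 3.03e-09) encodes a leukocyte adhesion molecule. In that order, their mean levels were 1.37, -0.01 and 0.92 in fed LWT and 0.28, -0.69 and 0.75 in fasted LWT mice. In LKO mice they were 2.13, -0.11 and 1.23 when fed and 3.19, 1.82 and 2.85 when fasted.

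With fasting in LWT, 3 of the 23 targets rose and 7 fell, where 23.1% of all genes rose and 21.2% fell. In LKO 9 rose and 6 fell, where 23% of all genes rose and 26.7% fell. Some targets rose with fasting in both genotypes, among them Il1rn, the interleukin-1 receptor antagonist, and Gadd45b, a stress-response gene. Gadd45b rose by 3.44 in LWT and by 2.93 in LKO (adjusted p = 1.35e-08 and 1.96e-08), and its means in fasted LWT and fasted LKO mice were 1.54 and 1.68. Il1rn was well above background in 1 of 5 fed LWT mice and in all fed LKO mice, so the size of its rise in LWT rests on signals near the background. Its means in fasted LWT and fasted LKO mice were -0.67 and -0.79. Of 17 acute phase genes, which report interleukin-6 signalling in hepatocytes, 2 were called higher in fasted LKO mice, where 16.5% of all genes were. The count was 7 when fed LKO replicate 3 was left out. In LWT mice 7 of these 17 fell with fasting, where 21.2% of all genes fell, and 11 did without replicate 3. Both shares of all genes are those of the fit with all mice. When 1 mouse was left out, 5705 to 7005 of all genes were called between fasted genotypes. For fasting in LWT it was 7020 to 8092. That mouse enters both comparisons only through the shared estimate of spread. The LWT differences were -3.08 for Saa2 and -2.89 for Saa1 (SE 0.743 and 0.734, adjusted p = 0.00203 and 0.00309). Fed LWT mice were uneven in these 2 genes, with SDs of 1.58 and 1.56, beside 0.27 for each in fasted LWT mice.

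In fed mice 1 of the 23 target genes and 1 of the 17 acute phase genes were called, in each case Il1rn, which stands in both lists. Over all genes 4.02% were called. No gene of the other 3 lists was called. Without replicate 3 it was 2 of the 23 target genes, whereas the 4.02% is that of the fit with all mice.

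**Figure D4:**
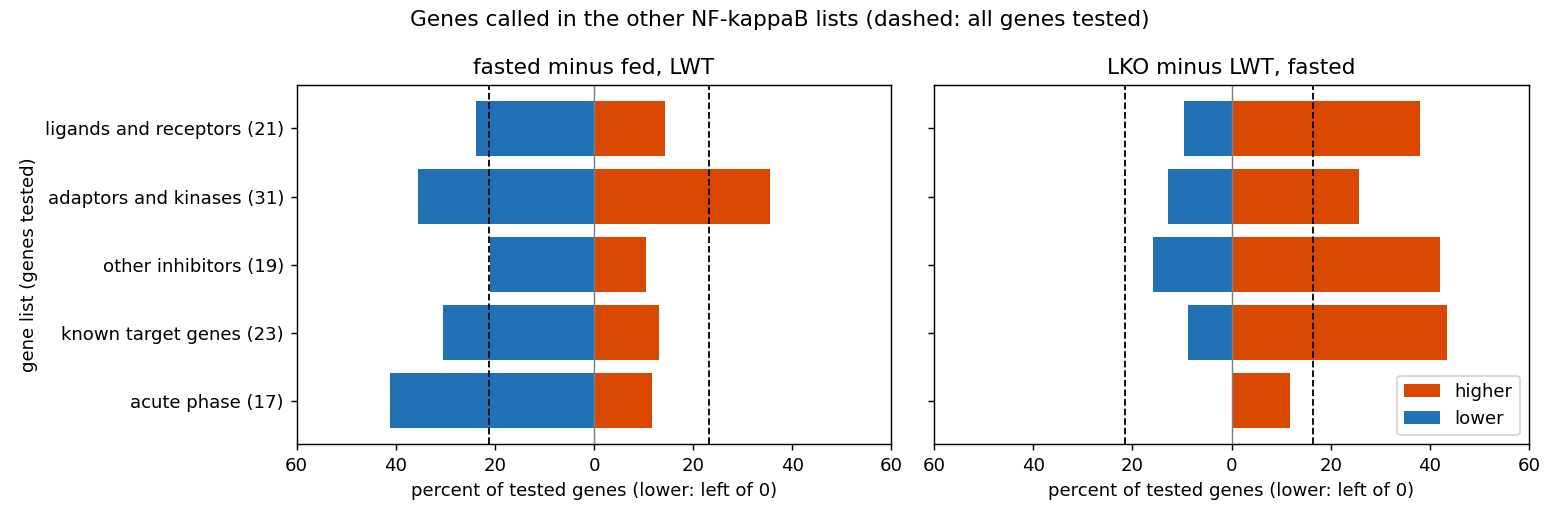
Percent of the tested genes of each list called higher (right of 0) or lower (left of 0), for fasting in LWT mice and for LKO against LWT in fasted mice; dashed lines give the same over all 17215 genes. In fasted LKO mice, 8 of 21 ligands and receptors and 10 of 23 known targets were called higher, beside 16.5% of all genes.

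Markers of liver cell types were measured beside these genes, since whole liver was used and fewer cells of a type cannot be told apart from less RNA per cell. Between fasted genotypes 37.9% of all genes were called, 16.5% higher in LKO and 21.4% lower. None of 9 hepatocyte markers was called in that comparison, and Alb stood near a level of 10.7 in both fasted groups. Of 12 macrophage markers 1 was lower in fasted LKO mice (Vsig4, -0.45, adjusted p = 0.0350) and none higher. Their summed level, in multiples of the array's 75th percentile, was 73.8 to 123 in fasted LWT and 92.4 to 136 in fasted LKO mice. Of 9 neutrophil and monocyte markers 1 was higher (Ly6c2, 0.70, adjusted p = 0.0182), with sums of 121 to 137 and 120 to 141. Of 10 lymphocyte markers 1 was higher (Cd3g, 0.56, adjusted p = 0.0251), with sums of 67.7 to 94.3 and 73.1 to 86.2. Cd4 set most of the lymphocyte sums, with mean levels of 6.23 in fasted LWT and 6.27 in fasted LKO mice, beside 1.56 and 1.53 for Cd3e. A sum mostly reports the brightest genes of its list. Cxcr2, Retnlg, Ngp, Cd8a and Cd79a did not pass the filter on dim signals.

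Endothelial markers moved with the genotype of fasted mice. All 10 were lower in fasted LKO than in fasted LWT mice, where 21.4% of all genes were lower. Their median difference was -0.61, and the summed level was 64.9 to 97.6 in fasted LWT and 44.2 to 54.9 in fasted LKO mice. Median sums were 71.4 in fed and 89.2 in fasted LWT mice, and 66.6 in fed and 53.3 in fasted LKO mice. With fasting in LWT 7 of the 10 rose and 0 fell, where 23.1% of all genes rose and 21.2% fell. In LKO 1 rose and 5 fell, where 23% of all genes rose and 26.7% fell. Tek, an angiopoietin receptor, differed by -1.098 (SE 0.143, adjusted p = 4.54e-06) and Clec4g by -0.95 (SE 0.130, adjusted p = 8.10e-06). Of 10 stellate markers 1 was lower (Hand2, -0.28, adjusted p = 0.0165), with sums of 101 to 124 and 88.9 to 118. The part of these shifts in the values of the 10 genes was not tested.

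Fed LKO replicate 3 was described apart from its group. Tnfaip3 stood at 0.56 in this mouse, while its 5 group mates had levels between -1.54 and -1.09. Bcl3 stood at 5.73 beside 3.95 to 4.39, above every fasted LKO mouse, and Nfkbiz stood at 0.39 beside -1.35 to -0.61. Relb, Rel, Nfkb2 and Nfkbie were also above all 5 group mates, Nfkbia was below all of them at 4.67, and Rela and Nfkb1 lay within their range. Over all genes, 25% were above and 32.6% below all 5 group mates. The same mouse had a Cxcl1 level of 5.69 beside 1.18 to 1.73, an Lcn2 level of 7.52 beside 0.89 to 2.76 and a Saa1 level of 10.4 beside 5.69 to 7.98. Its neutrophil and monocyte marker sum of 128 lay within the 124 to 134 of the others. S100a8 and S100a9, at fed LKO means of -2.20 and -0.14, add little to that sum. Their SDs were 1.24 and 1.26 in fed LKO mice, beside 0.51 and 0.52 in fed LWT mice. The sum therefore does not show whether these 2 genes were ordinary in this mouse. This profile differed from that of fasted LKO mice: Rela, which was high in all of them, was at 4.97 here, and Relb at -0.76 lay below their lowest value of 0.96.

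Members of the set followed one another to different degrees across the 22 mice. Pearson's r of the log2 levels was 0.97 for Rela and Relb, 0.96 for Relb and Tnfaip3 and 0.94 for Nfkb2 and Tnfaip3. Nfkbie ran apart, at -0.68 with Nfkb1 and -0.11 with Relb, and Bcl3 was at 0.66 with Relb and 0.18 with Nfkbia. Without fed LKO replicate 3 the Bcl3 values were 0.77 and 0.41. All of these points share the 4 groups, so the values describe the group pattern as well as any within-group relation, and no test was made of them. Of all genes tested, those most like Relb were Rassf1, Tnfrsf12a and Snhg1 (r = 0.972, 0.972 and 0.971). The genes most like Rela were Gdap9, Relb and Myo9b (0.971, 0.969 and 0.968), and those most like Tnfaip3 were Ptpn2, Relb and Tfe3 (0.958, 0.956 and 0.953). Nfkb2 was nearest to Tmem86a (0.978), Nfkbia to Trp53inp1 (0.963), Rel to Tnfaip3 (0.939), Nfkb1 to Rlim (0.937), Bcl3 to Vimp (0.902), Nfkbiz to Gm20274 (0.899) and Nfkbie to Nsdhl (0.878).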

How the data were processed

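Liver RNA of 22 mice was measured on 24 Cy3-labelled 1-colour Agilent arrays. Per the file headers, the deposited scanner files give spot intensity after background subtraction by Agilent Feature Extraction 10.10.1.1, with probe positions in mm9. A table by the authors with log2 values of 31356 probes, made with limma per the submitters' processing notes, served as an alternative. Control spots and outlier spots were left out, repeat spots and the 2 arrays of a mouse were averaged on the log2 scale, and each array's 75th percentile was subtracted. A dim spot's processed signal is a bound rather than a measurement, and scaling to a percentile assumes like overall brightness.

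Probes well above background in at least 5 of 22 mice were kept, 28138 with a gene symbol, and the brightest kept probe on average stood for a gene. One mean per group was fitted with limma 3.58.1 in R 4.3.3 to all mice, with 5 contrasts and Benjamini-Hochberg adjustment over 17215 genes at 0.05. The procedure was tested on simulated data. All 10 genes are reported, and from each pathway or cell type list up to 3 genes per comparison with the largest called change could be named, plus the first 3 markers of a cell type list and the 3 genes most like each of the 10. Genes named for fed LKO replicate 3 were chosen after their values were seen. The 10 genes and all lists were chosen with earlier results of these data known. The alternatives were 9 processing or design settings and leaving out each of the 22 mice. Replicate numbers were not taken as pairs.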

Additional observations from a re-analysis of the deposited data

Results flagged for a closer look

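Fed LKO replicate 3 lay far from its 5 group mates for 4 of the 10 genes, in each case as the highest mouse: Relb at -0.76, Nfkb2 at 0.64, Tnfaip3 at 0.56 and Bcl3 at 5.73, in log2 intensity relative to the array's 75th percentile. The gap to the next mouse, as a share of the group's range, was above Dixon's critical value. In all, 40 combinations of gene and group were examined, of which chance is expected to mark about 1 in 20, and these 4 all came from the same mouse.

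The fasting response differed between genotypes for 7 genes by the interaction term of limma. The LKO change exceeded the LWT change by 2.76 for Relb, 2.04 for Tnfaip3, 1.37 for Bcl3, 0.78 for Rela, 0.68 for Nfkb2, 0.64 for Rel and 0.53 for Nfkbia. Without fed LKO replicate 3 the corresponding values were 2.89, 2.34, 1.64, 0.80, 0.76, 0.71 and 0.49.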

How the results depend on the processing

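No difference of the 10 genes that was called changed direction under any of the 31 alternatives. The count of the 10 genes called for fasting in LWT, 5 as reported, was 3 with no filter on dim probes, 3 with slide as a block and 3 with the replicate block, and it ranged from 3 to 7 when 1 mouse was left out: it fell to 3 without fed LWT replicate 4 or fasted LWT replicate 1, 2 or 3, and was 7 without fed LKO replicate 3. The genes lost were Nfkb1 and Nfkbia. Fed LKO replicate 3 enters the LWT count only through the shared estimate of spread. Over all alternatives the count was 8 to 10 for fasting in LKO, 7 to 8 between fasted genotypes, 7 to 8 for the difference of fasting responses and 0 between fed genotypes. Replicate numbers did not pair the mice, since same-numbered mice of different groups deviated with correlations of -0.18 to 0.18 over 31 pairs, and the replicate block changed no other count by more than 1.5 times. Relb between fasted genotypes gave 2.18 with normexp background correction and 2.35 in the authors' deposited table. Dim probes, such as the second Rel and Relb probes, limit what can be said of their size.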
